A study of Homo sapiens with 12 samples.

Results

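The 9 genes described here are associated with the neuroendocrine lineage and comprise 5 transcription factors (POU3F2, NEUROD1, INSM1, FOXA2 and ONECUT2) and 4 marker genes (SYP, CHGA, ENO2 and NCAM1). They were taken from 20020 protein-coding genes of GENCODE v44, and for each gene the accessible bins within the gene body and 20 kb on both sides were read. In DU-145 cells these windows held 318 of 709366 bins, which form 40 of 79177 accessible regions. In BT-549 cells they held 344 of 472994 bins in 30 of 46298 regions. Bins held by both tables formed 22 regions in the windows, of 32671 in all.

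Chromatin accessibility was measured by ATAC-seq, in which the Tn5 transposase cuts open chromatin and the fragments over a stretch of DNA report how open it is. DU-145 is a line of human castration-resistant prostate cancer, and BT-549 is a line of human triple-negative breast cancer. Both were selected as transduced cells with a tetracycline-inducible hairpin against MUC1, and all 12 libraries come from such cells. The 4 groups were DU-145/tet-MUC1shRNA and BT-549/tet-MUC1shRNA cells given vehicle (0.1% DMSO) or doxycycline (DOX), which switches the hairpin on, with 3 replicates each. No cells with a control hairpin were analysed here, so that an effect of DOX and an effect of MUC1 silencing cannot be told apart. The replicates are described as biologically independent, and p-values measure the spread between them.

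Cells of the neuroendocrine lineage release peptides and amines from dense-core vesicles and share many genes with neurons. In prostate cancer, tumors that lose luminal identity under hormonal therapy can take on neuroendocrine features. In cells outside the lineage, many neuronal genes are held silent by REST, a repressor that binds the RE1 element. POU3F2 (BRN2) and ONECUT2 are homeodomain factors linked to that state in prostate cancer, and INSM1 and NEUROD1 are zinc finger and bHLH factors of neuroendocrine differentiation. FOXA2 is a forkhead pioneer factor. SYP (synaptophysin) is a vesicle membrane protein, CHGA (chromogranin A) a granule protein, ENO2 the neuronal enolase and NCAM1 (CD56) an adhesion molecule, and all of them are used as diagnostic stains.

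The summed bin coverage of a library was 12370094 to 25232000 in DU-145, 9142900 to 13606129 in vehicle-treated BT-549 and 2502510 to 3267024 in DOX-treated BT-549 cells, so that changes in BT-549 are measured less precisely. The strongest 10% of bins held 49.6% to 52.4% of the sum in vehicle-treated DU-145 and 42.2% to 43.1% in DOX-treated DU-145 cells, and 35.9% to 36.3% in vehicle-treated and 38.4% to 40.5% in DOX-treated BT-549 cells. The share thus moved with treatment, in opposite directions in the lines. Promoter regions were found for all 4 epithelial markers examined (EPCAM, CDH1, KRT8 and KRT18) in DU-145 and for none of them in BT-549 cells, which had all 4 mesenchymal ones (VIM, ZEB1, CDH2 and FN1). The prostate luminal markers KLK3 and HOXB13 had no promoter region in DU-145 cells, and ESR1 and PGR had none in BT-549 cells. Of the 3 blood markers, only PTPRC had one, in DU-145 cells.

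Levels are given as CPM, the summed coverage of a region scaled to a library sum of 1000000. At the targeted gene, the promoter region of MUC1 measured 89.0, 96.9 and 87.3 CPM in the vehicle and 76.9, 84.3 and 81.5 CPM in the DOX libraries of DU-145 (log2 fold change -0.17 ± 0.08 SE, adjusted p = 0.0534). In BT-549 cells it measured 149, 173 and 146 CPM against 161, 172 and 141 CPM (log2 fold change 0.02 ± 0.10 SE, adjusted p = 0.907). The DU-145 value passed as a fall with TMM factors (-0.36, adjusted p = 0.000206), with DESeq2 size factors and by the highest bin, and turned to a rise after removal of the GC trend (0.25, adjusted p = 0.00558). Without single DU-145 libraries its adjusted p ran from 0.0402 to 0.26. After removal of the GC trend the BT-549 value was -0.30 (adjusted p = 0.0197). A second region at starts of shorter MUC1 transcripts, at 13.5, 15.0 and 10.5 CPM with vehicle and 9.72, 6.35 and 5.44 CPM with DOX, fell in BT-549 (-0.87 ± 0.28 SE, adjusted p = 0.0201) and did not pass in DU-145 (0.03 ± 0.40 SE, adjusted p = 0.951). The BT-549 call was lost in 5 of 16 alternatives, among them without vehicle replicate 1 (0.0838), vehicle replicate 2 (0.107) or DOX replicate 3 (0.103). A hairpin acts on the transcript, so that these values do not check the silencing.

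Of the 40 regions in DU-145 cells, 12 were higher (30%) and 8 lower (20%) with DOX, and 20 did not pass an adjusted p of 0.05. Over all regions of the line, 37.1% were higher and 17.4% lower. The share of rises was thus numerically lower in these windows and the share of falls close to that of the line, and neither difference was tested. The median log2 fold change was 0.10 for these regions and 0.24 for all. Under the stricter cutoffs of the study for this line (2-fold, adjusted p of 1e-05), 2 regions were higher and 1 lower, against 14.1% and 3.27% of all regions. The study applied its cutoffs to single 100-bp bins tested with DESeq2. Here they are applied to joined regions tested with edgeR, so that the counts are not those of the study. The split between directions rested on the scaling of the libraries. It was 10 higher and 11 lower with TMM factors, 8 and 11 with DESeq2 size factors, 6 and 14 with loess offsets, and 17 and 3 after removal of a trend on GC content. Library sums placed the median of all regions at 0.24 (log2) and TMM factors at 0.05. In a bulk library, a change in the share of cells with an open region and a change in every cell cannot be told apart.

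In BT-549 cells, 1 of 30 regions was higher and 4 were lower with DOX, and 25 did not pass. Over all regions, 12.2% were higher and 18.0% lower. The median log2 fold change was -0.22 for these regions and -0.10 for all. Under the study's cutoffs for this line (2-fold, adjusted p of 0.01), no region was higher and 1 was lower, against 3.75% and 8.62% of all regions. The total of 5 dropped to 3 without vehicle replicate 1, without vehicle replicate 2 or without DOX replicate 1. With TMM factors the split was 2 higher and 3 lower, and after removal of the GC trend 0 and 9.

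**Figure D1:**
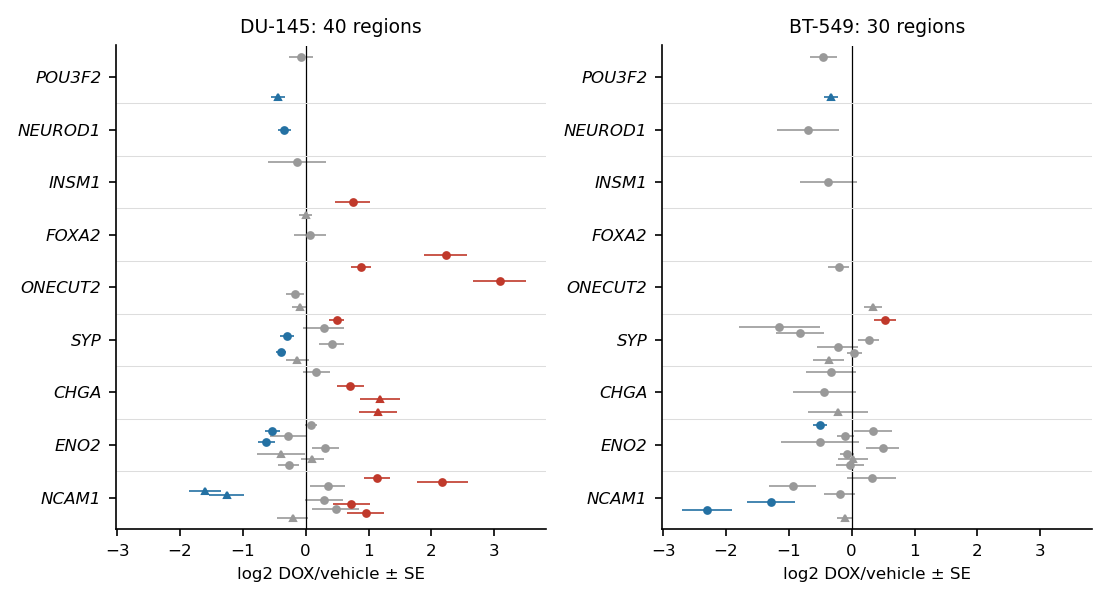
The horizontal axis gives the log2 ratio of DOX to vehicle with its SE for every region in the windows of the 9 genes, with DU-145 on the left and BT-549 on the right; triangles mark regions within 1 kb of a start site of the gene, and red, blue and grey stand for higher, lower and not called at an adjusted p of 0.05. The ONECUT2 (3.09), FOXA2 (2.23) and NCAM1 (2.18) windows hold the largest rises in DU-145, and the NCAM1 window holds the largest fall in each line.

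POU3F2 (chr6:98834574-98839458, + strand, ENSG00000184486.10) was the only transcription factor whose promoter region fell in both lines. In DU-145 cells, the region of 1500 bp over the start site (chr6:98833801-98835300) measured 28.8, 27.2 and 24.3 CPM with vehicle and 19.6, 19.0 and 20.6 CPM with DOX (log2 fold change -0.44 ± 0.11 SE, adjusted p = 0.00116). All 3 DOX libraries lay below all 3 vehicle libraries. After removal of the GC trend, its log2 fold change was -0.01 (adjusted p = 0.943), and the region has a GC content of 66.5%. The BT-549 region was 3900 bp long (chr6:98832201-98836100) and measured 98.2, 92.2 and 119 CPM with vehicle against 78.6, 83.6 and 83.7 CPM with DOX (log2 fold change -0.33 ± 0.11 SE, adjusted p = 0.0289). The groups did not overlap here either. That call was lost with TMM factors (adjusted p = 0.15), by the highest bin (0.655) and without vehicle replicate 1 (0.0619), vehicle replicate 3 (0.199), DOX replicate 1 (0.071) or DOX replicate 3 (0.0557). The region 11.4 kb downstream did not pass in either line (log2 fold change -0.07 and -0.45, adjusted p = 0.788 and 0.12), though the BT-549 value passed after removal of the GC trend (-0.64, adjusted p = 0.0275) and without DOX replicate 3 (-0.69, 0.0413). The difference between the lines in the DOX effect at the promoter was 0.09 ± 0.18 SE (adjusted p = 0.744), with a 95% interval of -0.27 to 0.44.

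The stretch of 200 bases just before the POU3F2 start site is shown since it holds part of the only promoter of a factor that fell in both lines. Capitals mark its 19 CG pairs, and it is 72.0% G and C (GRCh38, chr6:98834374-98834573, + strand).
POU3F2 promoter: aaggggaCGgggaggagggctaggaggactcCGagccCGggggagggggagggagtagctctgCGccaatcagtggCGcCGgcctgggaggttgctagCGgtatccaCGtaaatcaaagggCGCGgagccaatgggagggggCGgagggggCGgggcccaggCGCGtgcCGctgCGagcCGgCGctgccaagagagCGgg

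**Figure D2:**
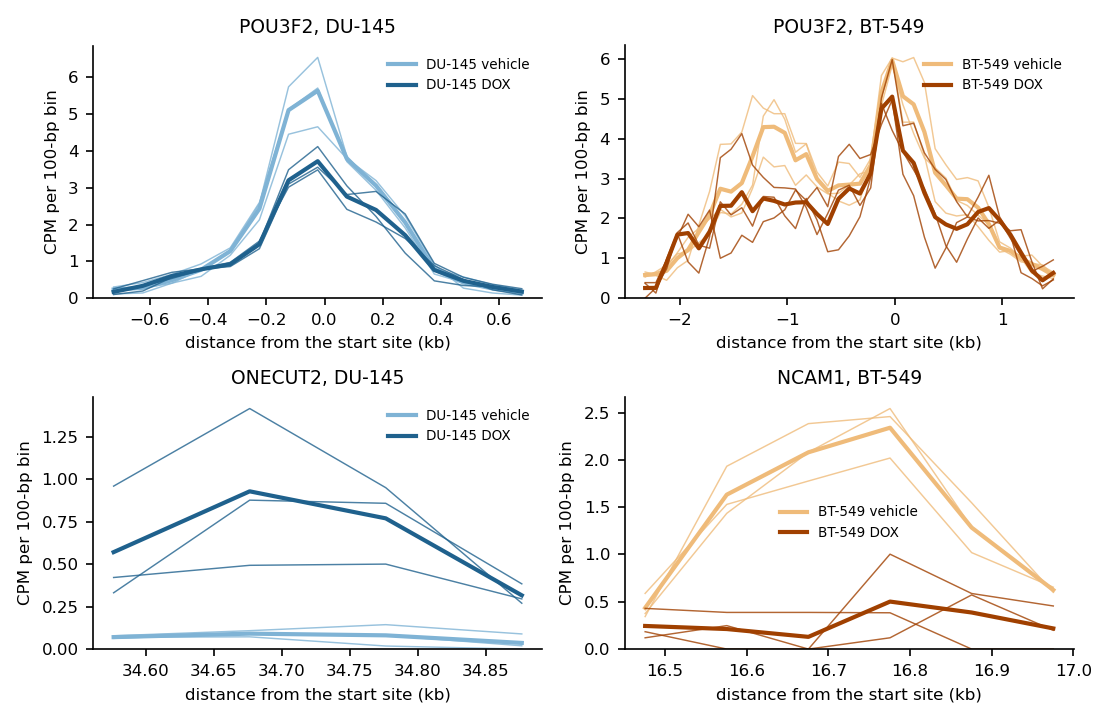
Each panel gives the CPM of 100-bp bins against the distance from the start site of the gene in kb, with thin lines for the 3 libraries of a group and a thick line for their mean. At POU3F2 the DOX mean lies below the vehicle mean around the start site in both lines, and BT-549 cells show a broader region; the ONECUT2 intronic region of DU-145 cells is near 0 in vehicle, and the NCAM1 intronic region of BT-549 cells is near 0 in DOX.

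NEUROD1 (chr2:181668295-181680827, - strand) and INSM1 (chr20:20368104-20370949, + strand) had no region at the start site in either table. In the peak lists, a peak within 1 kb of the NEUROD1 start was called in 1 library of 12 (DU-145 DOX replicate 3), and a peak at INSM1 in 2 (BT-549 vehicle replicate 2 and BT-549 DOX replicate 2). The fold enrichment over local background of these 3 peaks was 3.9, 4.2 and 4.6. In DU-145 cells, the window of NEUROD1 held only the promoter region of its neighbour CERKL, 24.0 kb away, which fell from 44.1, 41.1 and 36.0 to 31.5, 28.4 and 35.9 CPM (log2 fold change -0.34 ± 0.10 SE, adjusted p = 0.00468). After removal of the GC trend the value was 0.05. In BT-549 cells, a region 2.8 kb before the NEUROD1 start (chr2:181683501-181684000) measured 2.70, 3.73 and 3.65 CPM with vehicle and 1.17, 4.55 and 1.01 CPM with DOX, and the groups overlapped (log2 fold change -0.69 ± 0.49 SE, adjusted p = 0.305). Without DOX replicate 2 the value was -1.69 and passed (adjusted p = 0.0256).

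At INSM1, a region 7.6 kb upstream (chr20:20360301-20360700), in a UTR of CFAP61, rose in DU-145 cells from 1.61, 1.22 and 2.21 to 2.52, 2.64 and 2.90 CPM (log2 fold change 0.75 ± 0.28 SE, adjusted p = 0.0255). The same bases of BT-549 measured 2.50, 2.56 and 4.35 CPM with vehicle and 2.82, 1.66 and 2.77 CPM with DOX, which overlapped (log2 fold change -0.37 ± 0.45 SE, adjusted p = 0.574). The call in DU-145 was lost with TMM factors (adjusted p = 0.0943), and without vehicle replicate 2 (0.176), DOX replicate 2 (0.0528) or DOX replicate 3 (0.0843). A region 1.4 kb inside the gene, in its exon, was at 0.079 to 1.51 CPM in the 6 DU-145 libraries and did not pass (adjusted p = 0.829), except with loess offsets (-1.35, adjusted p = 0.0157).

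FOXA2 (chr20:22580998-22585455, - strand) was accessible in DU-145 cells alone. No peak lay in its window in any of the 6 BT-549 libraries, whereas all 6 DU-145 libraries had a peak at the start site with a fold enrichment of 24.0 to 48.4. The promoter region (chr20:22583701-22585700) held 28.3, 29.4 and 23.8 CPM with vehicle and 28.3, 25.8 and 27.7 CPM with DOX. The groups overlapped (log2 fold change -0.001 ± 0.11 SE, adjusted p = 0.992), and the 95% interval ran from -0.21 to 0.21. Removal of the GC trend turned this to 0.43 (adjusted p = 0.00111). A smaller region 1.5 kb upstream was at 2.08 to 3.68 CPM in the 6 libraries and did not pass (adjusted p = 0.853). An intergenic region 16.1 kb upstream (chr20:22601401-22601900) opened with DOX from 0.606, 0.46 and 0.606 to 2.97, 2.43 and 2.44 CPM (log2 fold change 2.23 ± 0.34 SE, adjusted p = 1.12e-06). Each DOX library was above each vehicle library, and this call was kept in all 16 alternatives. Its window held 2 peaks in each vehicle and 3 in each DOX library. Regions were kept if a peak was called in at least 3 libraries, whatever their condition. A region near 0 with vehicle can thus enter through the DOX libraries alone. This selection favours rises, and the adjusted p does not allow for it.

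ONECUT2 (chr18:57435374-57491298, + strand) opened inside and beyond the gene in DU-145 cells, while its promoter region did not pass in either line. The promoter region (chr18:57434701-57435800) held 20.7, 17.9 and 19.8 CPM with vehicle and 18.7, 18.4 and 17.4 CPM with DOX (log2 fold change -0.10 ± 0.12 SE, adjusted p = 0.53). That call rested on the scaling, since TMM factors gave -0.29 (adjusted p = 0.0432) and removal of the GC trend 0.33 (0.0171). An intronic region 34.7 kb downstream of the start (chr18:57469901-57470300) held 0.16, 0.42 and 0.255 CPM with vehicle and 3.60, 1.71 and 2.45 CPM with DOX (log2 fold change 3.09 ± 0.42 SE, adjusted p = 1.38e-07). The lowest vehicle library held a summed coverage of 2.2 there, so that the size of the rise is less certain than its direction. A region 62.7 kb downstream (chr18:57497401-57498400), past the end of the gene, rose from 7.43, 5.31 and 7.49 to 11.8, 12.6 and 12.2 CPM (log2 fold change 0.88 ± 0.17 SE, adjusted p = 2.53e-05). Both calls were kept in all 16 alternatives. The region at 34.7 kb, near 0 with vehicle, is subject to the selection named for the distal FOXA2 region, and the alternatives do not remove it. Neither of these regions was in the BT-549 table. An intronic region 2.6 kb from the start did not pass in either line (adjusted p = 0.323 and 0.391), but fell in DU-145 with TMM factors (-0.36, adjusted p = 0.0269) and DESeq2 size factors (-0.41, 0.0114). The BT-549 promoter region held 38.0, 35.8 and 35.4 CPM with vehicle and 41.1, 51.9 and 44.9 CPM with DOX, which did not overlap, but the change missed the threshold (log2 fold change 0.34 ± 0.14 SE, adjusted p = 0.0811). It passed with TMM factors (0.44, adjusted p = 0.0248), with DESeq2 size factors (0.0242) and without DOX replicate 1 (0.0484).

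The 200 bases around the highest bin of the distal regions of FOXA2 and ONECUT2 are shown since these rose most among the factors. Capitals mark matches to the AP-1 sequence TGANTCA, which is bound by JUN and FOS factors and was searched on both strands. Both are written on the strand of the gene (GRCh38, chr20:22601451-22601650, - strand, and chr18:57469951-57470150, + strand).
FOXA2 distal: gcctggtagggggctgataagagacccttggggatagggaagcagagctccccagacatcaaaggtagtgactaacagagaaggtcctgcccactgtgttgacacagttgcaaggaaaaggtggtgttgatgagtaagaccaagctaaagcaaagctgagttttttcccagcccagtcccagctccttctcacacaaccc
ONECUT2 intronic: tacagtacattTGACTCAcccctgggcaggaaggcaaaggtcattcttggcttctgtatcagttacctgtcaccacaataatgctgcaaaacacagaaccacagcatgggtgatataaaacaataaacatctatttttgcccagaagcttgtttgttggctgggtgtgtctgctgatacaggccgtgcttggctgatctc
The ONECUT2 stretch holds 1 match and the FOXA2 stretch none. Of the DU-145 regions with the length of the ONECUT2 region, 42.9% hold at least 1 match.

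SYP (chrX:49187815-49200218, - strand) had a promoter region in both lines that did not pass in either. In DU-145 cells, it held 9.16, 5.76 and 7.92 CPM with vehicle and 6.29, 6.21 and 8.04 CPM with DOX (log2 fold change -0.13 ± 0.19 SE, adjusted p = 0.585). The BT-549 values were 16.1, 15.5 and 13.3 against 9.08, 15.2 and 11.0 CPM (log2 fold change -0.36 ± 0.24 SE, adjusted p = 0.276), and the groups overlapped in both lines. It passed as a fall with loess offsets in DU-145 (-0.44, adjusted p = 0.0493) and after removal of the GC trend in BT-549 (-0.73, 0.0232). A region in a UTR of SYP, 9.0 kb inside the gene, fell in DU-145 cells from 60.7, 66.6 and 61.2 to 49.0, 46.9 and 48.2 CPM (log2 fold change -0.39 ± 0.08 SE, adjusted p = 0.000153). After removal of the GC trend it was -0.02 (adjusted p = 0.828). The change in BT-549 was 0.04 ± 0.12 SE (adjusted p = 0.813).

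Regions in the window of SYP also lie at 2 other genes. The promoter region of PLP2 (chrX:49171601-49173100), 27.7 kb from the SYP start, was the only one in these windows to rise in both lines. It went from 15.7, 14.6 and 15.4 to 23.3, 22.4 and 18.5 CPM in DU-145 (log2 fold change 0.49 ± 0.12 SE, adjusted p = 0.00115) and from 23.0, 21.1 and 27.8 to 40.8, 29.7 and 33.3 CPM in BT-549 cells (0.53 ± 0.18 SE, adjusted p = 0.0246). The groups did not overlap in either line. The DU-145 call was lost with DESeq2 size factors (adjusted p = 0.0995). The BT-549 call was lost after removal of the GC trend (adjusted p = 0.434) and without vehicle replicate 1 (0.104), vehicle replicate 2 (0.117) or DOX replicate 1 (0.122). Of 2 regions at starts of PRICKLE3, the one 15.6 kb from the SYP start fell in DU-145 (log2 fold change -0.29 ± 0.11 SE, adjusted p = 0.0272), which was lost without vehicle replicate 1 (0.0589), vehicle replicate 2 (0.0669) or DOX replicate 2 (0.123) and turned to 0.13 after removal of the GC trend. The other, 13.8 kb from the SYP start, went from 4.63, 4.90 and 4.54 to 5.30, 5.85 and 7.57 CPM without overlap and did not pass (log2 fold change 0.41 ± 0.20 SE, adjusted p = 0.0721). It did pass after removal of the GC trend (0.84, adjusted p = 0.000361) and without DOX replicate 1 (0.51, 0.0428).

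CHGA (chr14:92923150-92935285, + strand) was the marker with the largest share of rising regions in DU-145 cells, 3 of 4, against 37.1% of all regions of the line. None of the 6 DU-145 libraries had a peak within 1 kb of its main start site. An intronic region 1.3 kb downstream of that start (chr14:92924201-92924800) rose from 1.75, 0.89 and 1.07 to 2.56, 2.44 and 2.87 CPM (log2 fold change 1.15 ± 0.30 SE, adjusted p = 0.00162). An exonic region 3.5 kb downstream (chr14:92926401-92927000) rose from 1.30, 1.39 and 0.926 to 2.55, 1.77 and 4.002 CPM (log2 fold change 1.18 ± 0.32 SE, adjusted p = 0.00187). Both lie within 1 kb of starts of other annotated CHGA transcripts. In both, each DOX library exceeded each vehicle library. A region 14.6 kb downstream, in a UTR of ITPK1, rose from 3.11, 2.86 and 3.72 to 5.46, 4.63 and 5.59 CPM (log2 fold change 0.71 ± 0.21 SE, adjusted p = 0.00553). With loess offsets none of the 3 passed (adjusted p = 0.0961, 0.0952 and 0.231). The region in an ITPK1 intron at 29.0 kb did not pass (adjusted p = 0.517), except after removal of the GC trend (0.56, adjusted p = 0.0212). The exonic region was also lost without DOX replicate 3 (log2 fold change 0.82, adjusted p = 0.057). The CHGA intronic region was lost by the highest bin (adjusted p = 0.0572), and the ITPK1 UTR region with DESeq2 size factors (0.0643).

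In BT-549 cells, the CHGA region lay at the start site itself (chr14:92923301-92923600). It held 2.26, 2.56 and 4.44 CPM with vehicle and 3.87, 0.943 and 3.02 CPM with DOX, and the groups overlapped (log2 fold change -0.22 ± 0.47 SE, adjusted p = 0.774). A peak at the CHGA start was called in 3 of 3 vehicle and 0 of 3 DOX libraries of BT-549. The DOX libraries are shallower, and the part of depth in this was not tested. The 95% interval of the log2 fold change ran from -1.15 to 0.71.

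The start-site regions of SYP and CHGA are the only ones in the 9 windows with an exact match to the core of RE1, searched as AGCACC and GGACAG with 2 bases between them on both strands. The matches are shown with 5 bases on each side, with the core in capitals (GRCh38, chrX:49200126-49200139, - strand, and chr14:92923526-92923539, + strand).
SYP RE1: gctccAGCACCGTGGACAGagccc
CHGA RE1: ttttcAGCACCGCGGACAGcgcct
An exact core was found in 71 of 79177 DU-145 regions (0.09%) and in 110 of 46298 BT-549 regions (0.24%). The SYP match lay in a region of both tables, and the CHGA match in a region of the BT-549 table only. With up to 2 mismatches the core occurs in 12.64% of DU-145 and 14.97% of BT-549 regions, so that looser matches in other windows are common.

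**Figure D3:**
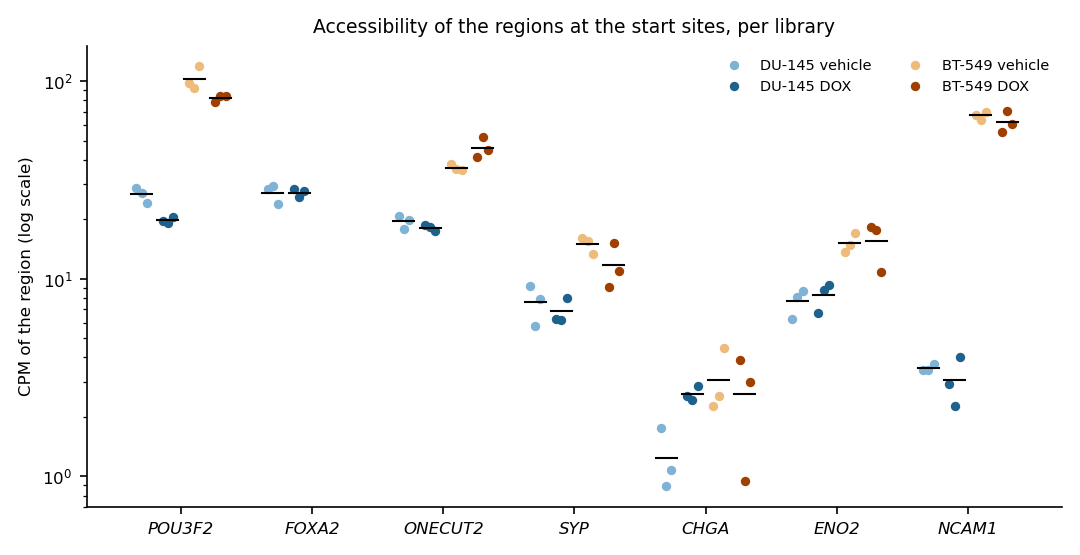
The vertical axis gives the CPM of the region at or nearest to the start site on a log scale, with a point for each library, a bar for the mean of 3, and a group of columns for each gene; NEUROD1 and INSM1 have no such region, FOXA2 has none in BT-549, and region lengths and positions differ between the tables. Only POU3F2 (both lines) and CHGA (DU-145) changed at an adjusted p of 0.05.

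ENO2 (chr12:6913745-6923698, + strand) had an open region 0.8 kb inside the gene in both lines, in a UTR, and it did not pass in either. It held 6.24, 8.13 and 8.72 CPM with vehicle and 6.67, 8.80 and 9.30 CPM with DOX in DU-145 (log2 fold change 0.11 ± 0.18 SE, adjusted p = 0.627), and 13.7, 14.8 and 17.0 against 18.3, 17.7 and 10.8 CPM in BT-549 cells (0.02 ± 0.24 SE, adjusted p = 0.964). The 95% intervals were -0.24 to 0.45 and -0.44 to 0.48. After removal of the GC trend, the DU-145 region passed as a rise (0.53, adjusted p = 0.0092). A second small UTR region at 1.9 kb, in the DU-145 table, did not pass (log2 fold change -0.39 ± 0.38 SE, adjusted p = 0.401), except with loess offsets (-1.38, adjusted p = 0.00271). The called regions of this window lie at the neighbouring genes ATN1 and C12orf57. In DU-145 cells, an intronic region of ATN1 (chr12:6925101-6926500) fell from 21.7, 30.4 and 26.5 to 13.9, 20.7 and 16.2 CPM (log2 fold change -0.63 ± 0.13 SE, adjusted p = 0.000153). An exonic one (chr12:6937401-6938500) fell from 25.3, 27.0 and 23.1 to 16.2, 18.9 and 17.0 CPM (log2 fold change -0.53 ± 0.12 SE, adjusted p = 0.000223) but not after removal of the GC trend (-0.11, adjusted p = 0.437). In BT-549 cells, the region at C12orf57 (chr12:6942301-6945200) fell from 121, 147 and 119 to 79.4, 96.1 and 98.3 CPM (log2 fold change -0.50 ± 0.11 SE, adjusted p = 0.00115). Only 13 of its 29 bins lie in the window, and its highest bin lies outside. Of all regions in the 9 windows, 9 of 40 in DU-145 and 8 of 30 in BT-549 cells lie at the start of a neighbouring gene.

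NCAM1 (chr11:112961275-113278436, + strand) has the longest window, with 10 regions in DU-145 and 6 in BT-549 cells, and changes in both directions. The region at its main start site did not pass in either line. In DU-145 cells it held 3.47, 3.44 and 3.71 CPM with vehicle and 2.92, 2.26 and 4.01 CPM with DOX (log2 fold change -0.21 ± 0.24 SE, adjusted p = 0.49), and in BT-549 cells, where it is 2900 bp long, 67.5, 63.4 and 70.1 against 55.6, 70.7 and 60.5 CPM (-0.11 ± 0.12 SE, adjusted p = 0.545). It passed as a fall with loess offsets in DU-145 (-0.62, adjusted p = 0.0284) and after removal of the GC trend in BT-549 (-0.46, 0.00618). A pair of intronic regions of DU-145 near the start of short NCAM1 transcripts closed with DOX. The region 298.3 kb downstream of the main start (chr11:113259301-113259800) fell from 7.19, 4.01 and 5.19 to 2.34, 1.39 and 1.69 CPM (log2 fold change -1.60 ± 0.26 SE, adjusted p = 2.49e-06). The region 295.4 kb downstream (chr11:113256301-113256800) fell from 3.18, 3.18 and 4.66 to 1.75, 1.86 and 0.896 CPM (log2 fold change -1.26 ± 0.28 SE, adjusted p = 0.000302). Each DOX library lay below each vehicle library in both regions, and both calls were kept in all 16 alternatives.

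Past the end of NCAM1, on the side of TTC12, 2 regions opened in the same DU-145 libraries. The region 332.9 kb downstream of the start (chr11:113293801-113294300) went from 0.337, 0.41 and 0.374 to 2.19, 1.498 and 1.78 CPM (log2 fold change 2.18 ± 0.40 SE, adjusted p = 2.06e-05). The region 337.5 kb downstream (chr11:113298201-113299000), of which 2 of 8 bins lie in the window, went from 2.94, 2.69 and 3.91 to 7.64, 6.84 and 6.04 CPM (log2 fold change 1.13 ± 0.21 SE, adjusted p = 2.14e-05). These 2 calls were also kept in all 16 alternatives. The region at 332.9 kb, near 0 with vehicle, could likewise enter through the DOX libraries alone, a selection that favours rises. A further pair of intronic regions, 88.1 and 223.5 kb from the start, rose by a log2 fold change of 0.96 and 0.73 (adjusted p = 0.00569 and 0.0371). Neither passed with loess offsets (adjusted p = 0.196 and 0.501) or without vehicle replicate 2 (0.0553 and 0.306), and the second was also lost without DOX replicate 1 (0.052) or DOX replicate 3 (0.162). The region at 88.1 kb was also lost by the highest bin (adjusted p = 0.114).

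In BT-549 cells, an intronic NCAM1 region 16.8 kb downstream of the start (chr11:112977701-112978300) closed from 8.34, 9.26 and 7.59 to 1.59, 2.23 and 1.26 CPM (log2 fold change -2.30 ± 0.40 SE, adjusted p = 7.17e-05). This was the only joined region of the 9 windows to pass the study's cutoffs in the present BT-549 test, and the call was kept in all 16 alternatives. A summed coverage of only 4.1 stood behind the lowest DOX library. The region could enter through the vehicle libraries alone, a selection that favours falls and that the adjusted p does not allow for. A second intronic region at 88.1 kb (chr11:113048801-113049700) fell from 8.13, 10.2 and 8.11 to 1.51, 7.34 and 2.53 CPM (log2 fold change -1.28 ± 0.38 SE, adjusted p = 0.0122). DOX replicate 2 was close to the vehicle libraries, and the call was lost without vehicle replicate 2 (0.0715), DOX replicate 1 (0.0665) or DOX replicate 3 (0.0797). It was also lost by the highest bin (0.154). Another, at 241.3 kb, missed the threshold (log2 fold change -0.94 ± 0.38 SE, adjusted p = 0.0599), and passed without DOX replicate 2 (-1.38, adjusted p = 0.0132).

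The 200 bases around the highest bin of the NCAM1 regions with the largest fall and rise in DU-145 and the largest fall in BT-549 are shown on the + strand, with AP-1 matches in capitals (GRCh38, chr11:113259451-113259650, chr11:113294051-113294250 and chr11:112977951-112978150).
NCAM1 closing in DU-145: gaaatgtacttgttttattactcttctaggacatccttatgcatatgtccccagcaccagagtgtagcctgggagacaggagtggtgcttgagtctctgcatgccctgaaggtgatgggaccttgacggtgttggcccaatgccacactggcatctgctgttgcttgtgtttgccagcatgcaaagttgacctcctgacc
NCAM1 opening in DU-145: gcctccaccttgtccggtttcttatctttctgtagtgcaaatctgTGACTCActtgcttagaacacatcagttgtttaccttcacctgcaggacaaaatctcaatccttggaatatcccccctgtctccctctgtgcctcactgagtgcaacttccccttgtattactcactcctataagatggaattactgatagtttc
NCAM1 closing in BT-549: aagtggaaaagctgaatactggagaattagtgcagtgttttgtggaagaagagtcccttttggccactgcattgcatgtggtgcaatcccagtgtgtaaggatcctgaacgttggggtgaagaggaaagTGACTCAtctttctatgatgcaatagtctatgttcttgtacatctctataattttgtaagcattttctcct
The opening stretch of DU-145 and the closing stretch of BT-549 hold 1 match each. The closing region of DU-145 also holds a match, outside the 200 bases shown.
Among the DU-145 regions of the 9 windows, 8 of the 12 that rose, 3 of the 8 that fell and 3 of the 20 others held an AP-1 match. The shares over all DU-145 regions were 66.3% of those that rose, 37.4% of those that fell and 38.0% of the others. In BT-549 cells, 3 of the 4 that fell held a match, against 53.5% of all regions that fell.

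**Figure D4:**
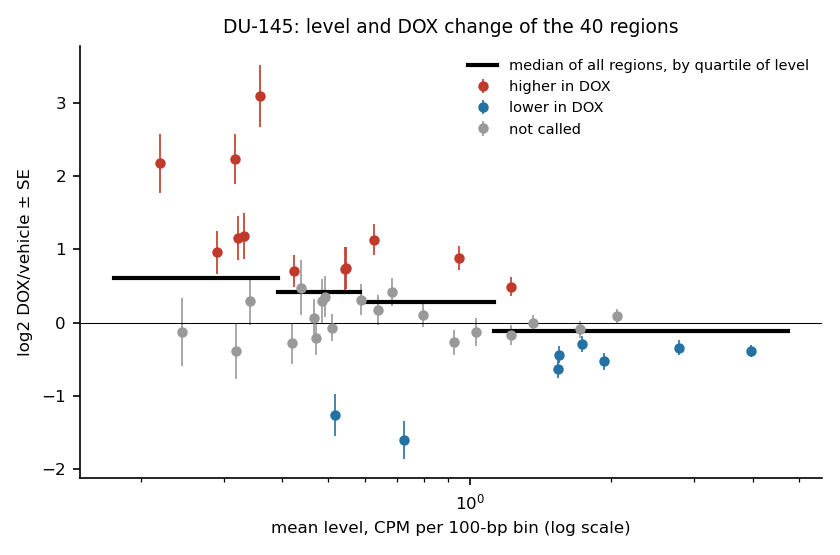
For the 40 DU-145 regions, the horizontal axis gives the mean level in CPM per 100-bp bin on a log scale and the vertical axis the log2 ratio of DOX to vehicle with its SE; black lines give the median of all regions of the line in each quartile of level. Rising regions lie mostly at low levels and falling ones mostly at high levels, and the 2 closing NCAM1 regions lie apart from the other falling ones.

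The direction of change in DU-145 cells moved with the level of a region. In the lowest quartile of level, 6 of 9 regions of the windows rose and the other 3 did not pass. Over all regions of that quartile, 43% rose and 8.43% fell, with a median log2 fold change of 0.61. In the highest quartile, 1 of 11 rose and 6 fell, against 21.7% and 37.2% of all its regions, with a median of -0.12 over all. GC content was lower at the median in the regions that rose than in those that fell, and the ranges overlapped. It had a median of 48.4% in the 12 regions that rose (39.4% to 61.9%) and 58.8% in the 8 that fell (47.2% to 66.5%). In the 20 regions not called the median was 60.0% (45.8% to 77.4%). In BT-549 cells, the median over all regions was -0.58 in the lowest quartile of level and 0.08 in the highest. The part of level, GC content and depth in the changes of single regions was not tested beyond the alternative scalings above.

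Summed over a whole window, the accessibility of no gene passed a test of its own. With 3 libraries against 3, the exact two-sided permutation test cannot give a p below 0.1, and the smallest adjusted p over 17 sums was 0.189. In DU-145 cells, the window of CHGA summed to 9.91 ± 0.69 CPM (SD, n = 3) with vehicle and 15.3 ± 1.36 CPM with DOX, POU3F2 to 32.9 ± 2.79 and 25.8 ± 1.05 CPM, and ENO2 to 80.1 ± 6.62 and 61.5 ± 5.12 CPM. The ENO2 sum includes the ATN1 intron (mean 26.2 with vehicle and 16.9 CPM with DOX) and the ATN1 exon (25.1 and 17.4 CPM). The region at the ENO2 start itself held a mean of 7.69 and 8.26 CPM. NCAM1, with its opposite changes, summed to 20.8 ± 2.66 and 20.2 ± 2.2 CPM. In BT-549 cells, POU3F2 went from 125.57 ± 17.2 to 98.2 ± 5.98 CPM and NCAM1 from 108.5 ± 3.04 to 87.9 ± 11.7 CPM. TMM factors turned ONECUT2 in DU-145 from a log2 ratio of 0.17 to -0.03 and FOXA2 from 0.10 to -0.09.

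The lines were then compared in vehicle, on the bins held by both tables and with library sums over those bins. All 19 regions that differed were higher in BT-549 (86.4% of 22, against 48.1% of all shared regions), and none was higher in DU-145 (against 27.0%). Of the 22 regions, 8 lie at the start of a neighbouring gene. The ENO2 window gave 7 of the 19, among them regions at ATN1 and C12orf57. The count is thus one of regions in the windows, not of lineage genes. In edgeR's quasi-likelihood test all 22 log2 differences (DU-145 minus BT-549) were negative, so that 0 were higher in DU-145 at an unadjusted p of 0.05 as well, and DESeq2's Wald test and limma-trend also gave 0. The median was -0.84, against -0.33 for all shared regions. With TMM factors, 15 were higher in BT-549 and 0 in DU-145. A single region, the ATN1 exon, was higher in DU-145 when each region was read by its highest bin, with 14 higher in BT-549. Regions that only 1 table holds, such as those of FOXA2, are outside this comparison.

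At the start sites, the POU3F2 region held 38.4, 36.6 and 32.7 CPM in DU-145 and 61.7, 60.2 and 75.5 CPM in BT-549 cells (log2 difference -0.87 ± 0.11 SE, adjusted p = 1.54e-08). Read by its highest bin, the difference was 0.069 (adjusted p = 0.668) and not detectable. ONECUT2 held 27.6, 24.2 and 26.7 against 44.03, 41.8 and 41.2 CPM (log2 difference -0.70 ± 0.12 SE, adjusted p = 3.52e-06). The SYP region held 12.2, 7.76 and 10.7 against 19.7, 18.9 and 16.4 CPM (-0.87 ± 0.18 SE, adjusted p = 4.88e-05), and the ENO2 region 8.31, 10.9 and 11.8 against 15.8, 16.6 and 19.4 CPM (-0.73 ± 0.17 SE, adjusted p = 0.000329). The ENO2 call was lost by the highest bin (-0.35, adjusted p = 0.175). NCAM1 differed most at the start, with 4.16, 4.37 and 4.68 CPM in DU-145 and 15.1, 13.6 and 19.1 CPM in BT-549 cells (-1.85 ± 0.20 SE, adjusted p = 3.44e-10). None of these groups overlapped.

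Away from the start sites, the NCAM1 intron at 88.1 kb held 1.80, 1.44 and 2.42 CPM in DU-145 and 7.99, 11.2 and 8.59 CPM in BT-549 cells (log2 difference -2.34 ± 0.25 SE, adjusted p = 4.30e-10). In the ENO2 window, the intergenic region beside ATN1 (chr12:6924101-6924900) held 4.08, 5.80 and 7.05 against 27.6, 30.4 and 31.9 CPM (-2.41 ± 0.18 SE, adjusted p = 3.32e-14). The C12orf57 region, with 6 of 22 bins in the window, held 57.2, 61.0 and 58.7 against 136, 165 and 138 CPM (-1.31 ± 0.09 SE, adjusted p = 2.44e-15). The POU3F2 downstream region (-1.46 ± 0.19 SE, adjusted p = 2.09e-08), the ONECUT2 intron at 2.6 kb (-0.94 ± 0.13 SE, 1.39e-07), the NCAM1 intron at 241.3 kb (-1.11 ± 0.27 SE, 0.000369) and the INSM1 upstream region (-0.81 ± 0.30 SE, 0.0165) were lower in DU-145 as well. The INSM1 call was lost with TMM factors (0.106) and without DU-145 vehicle replicate 2 (0.117) or BT-549 vehicle replicate 3 (0.163). The call of the NCAM1 intron at 241.3 kb was lost with loess offsets (-0.21, adjusted p = 0.507). The 3 regions that did not pass were 2 in the SYP window (adjusted p = 0.704 and 0.0872) and the ITPK1 intron in the CHGA window (0.126), each of which was higher in BT-549 after removal of the GC trend (0.00288, 4.71e-05 and 0.00341).

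**Figure D5:**
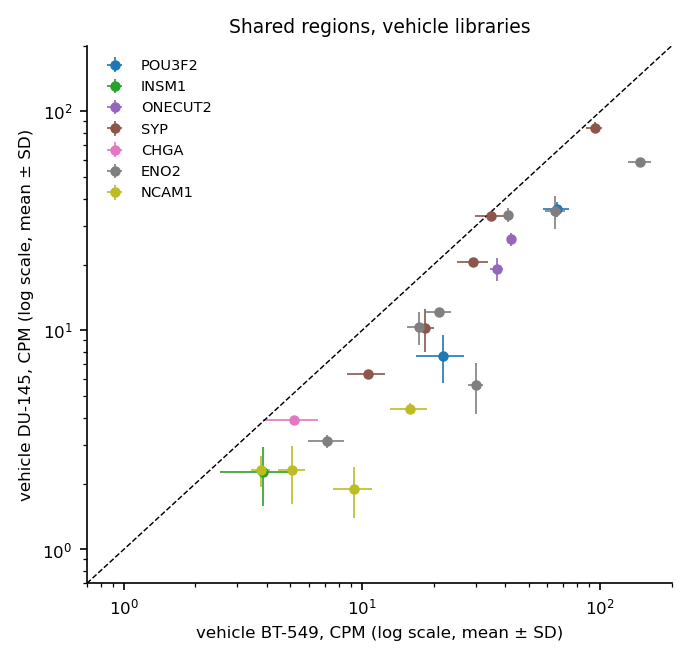
Each point is a region of bins held by both tables, with its mean CPM and SD over 3 vehicle-treated BT-549 libraries on the horizontal and 3 vehicle-treated DU-145 libraries on the vertical axis, both on log scales and colored by gene; the dashed line marks equal levels. All 22 points lie below the line, and the NCAM1 and ENO2 windows hold the points farthest from it.

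Per kb, the order of the start-site regions differed between the lines, but the regions ranked are not the same stretches and the order was not tested. NCAM1 was 700 bp long with its highest bin at 0.1 kb in DU-145, and 2900 bp long with it at 1.9 kb in BT-549. CHGA was read at 1.3 kb in DU-145 and 0.4 kb in BT-549, and FOXA2 had no region in BT-549. In vehicle-treated DU-145 cells, POU3F2 (17.8 ± 1.52 CPM per kb, SD, n = 3) and ONECUT2 (17.7 ± 1.29) overlapped in their libraries and stood above FOXA2 (13.6 ± 1.48). FOXA2 overlapped SYP (10.9 ± 2.46), and SYP overlapped ENO2 (7.69 ± 1.30). NCAM1 (5.06 ± 0.21) and the CHGA region at 1.3 kb (2.06 ± 0.75) came last, and neither overlapped a neighbour in the order. In vehicle-treated BT-549 cells, ONECUT2 (28.0 ± 1.06), POU3F2 (26.4 ± 3.53), NCAM1 (23.1 ± 1.17) and SYP (21.4 ± 2.08) overlapped, each with the one after it among these 4. They were followed by ENO2 (12.6 ± 1.41) and CHGA (10.3 ± 3.94), which overlapped one another. With DOX, POU3F2 came after ONECUT2 and FOXA2 in DU-145 cells, at 13.2 ± 0.54 CPM per kb, and overlapped FOXA2.

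The DOX effect differed between the lines in 5 of the 22 shared regions, 4 with a more positive effect in DU-145 and 1 in BT-549 (18.2% and 4.55%, against 27.3% and 11.3% of all shared regions). The largest difference was in the NCAM1 intron at 88.1 kb, which rose in DU-145 and fell in BT-549 cells (difference of log2 fold changes 2.58 ± 0.50 SE, adjusted p = 5.65e-05). Its BT-549 DOX libraries held 0.775, 6.92 and 2.01 CPM, with a summed coverage as low as 1.7. The C12orf57 promoter region, with 6 of 22 bins in the ENO2 window, differed by 0.72 ± 0.15 SE (adjusted p = 0.000109). In the same window, the intergenic region beside ATN1 differed by 1.11 ± 0.29 SE (0.00199) and the ATN1 intron by -0.60 ± 0.20 SE (0.0141). The INSM1 upstream region differed by 1.29 ± 0.51 SE (0.0401). None of the 5 shared start-site regions passed, with adjusted p from 0.293 for ONECUT2 to 0.744 for POU3F2, although each passed in some alternative. ONECUT2 did with TMM factors (-0.47, adjusted p = 0.0473) and DESeq2 size factors, NCAM1 with loess offsets (-0.95, 0.0264), and POU3F2 (0.58, 0.0104), SYP (0.91, 0.0157) and ENO2 (0.77, 0.0314) after removal of the GC trend. With TMM factors 3 regions were more positive in DU-145 and 5 in BT-549, and after removal of the GC trend 10 and 0.

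Other genes of the lineage were read in the same windows. Of 16 further transcription factors, 11 had a region in DU-145, and 6 of 38 regions rose (15.8%) and 2 fell (5.26%), against 37.1% and 17.4% of all regions of the line. An intronic region of SFTA3 in the window of NKX2-1, a factor of lung and thyroid, fell from 46.6 to 17.7 CPM (log2 fold change -1.40 ± 0.10 SE, adjusted p = 8.54e-14). An SLC25A48 intron near NEUROG1, a proneural factor, rose from 1.42 to 3.84 CPM (1.44 ± 0.28 SE, adjusted p = 5.27e-05), and the promoter of SOX2, a stem cell factor, from 15.8 to 21.8 CPM (0.45 ± 0.13 SE, adjusted p = 0.003). In BT-549 cells, 1 of 21 regions passed the test (4.76% higher, against 12.2% of all), a UTR region of SOX11 that rose (log2 fold change 0.74 ± 0.13 SE, adjusted p = 5.48e-05).

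Of 20 further vesicle, peptide and neuronal markers, 18 had a region in DU-145 cells, and 37 of 96 regions rose (38.5%, close to the 37.1% of all regions) and 9 fell (9.38%, against 17.4%). An intergenic region 1517 bp from STMN2, a neuronal microtubule regulator, opened from 0.43 to 5.84 CPM (log2 fold change 3.77 ± 0.31 SE, adjusted p = 1.84e-12), and an intron of SNAP25, a synaptic fusion protein, from 0.83 to 6.34 CPM (2.97 ± 0.27 SE, adjusted p = 3.39e-11). An intron of SEZ6 closed from 12.3 to 2.06 CPM (-2.53 ± 0.21 SE, adjusted p = 1.70e-12). In BT-549 cells, 6 of 59 regions rose (10.2%) and 14 fell (23.7%), against 12.2% and 18.0% of all regions. An intron of DDC, which makes dopamine and serotonin, fell from 40.4 to 8.98 CPM (-2.17 ± 0.21 SE, adjusted p = 7.34e-09), and an intron of PCSK1, a prohormone convertase, from 16.5 to 5.51 CPM (-1.59 ± 0.28 SE, adjusted p = 7.23e-05). The SCG2 exon held 4.0 CPM with vehicle and 0.19 CPM with DOX (adjusted p = 0.000103), too close to 0 for a fold change to be given.

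Of 9 genes that repress the neuronal program, all had regions in DU-145 cells, and 19 of 56 regions rose and 19 fell (33.9% each, against 37.1% and 17.4% of all regions). Introns of YAP1 (from 1.46 to 9.53 CPM) and RCOR1 (from 0.37 to 3.92 CPM), a REST corepressor, and an intergenic region near HDAC2 (from 4.82 to 15.2 CPM) rose. In BT-549 cells 6 of 33 rose and 6 fell (18.2% each, against 12.2% and 18.0%). They included a rise in an intergenic region 4353 bp from the HES1 start, HES1 being a Notch target that represses neuronal differentiation (from 80.6 to 151 CPM, log2 fold change 0.90 ± 0.10 SE, adjusted p = 9.50e-08), and a fall in an HDAC2 intron (-1.24 ± 0.24 SE, adjusted p = 0.000293). Between the vehicle-treated lines, 6 of 12 shared regions of the other factors were higher in DU-145 and 3 in BT-549 (50% and 25%, against 27.0% and 48.1% of all shared regions), led by the NKX2-1 promoter with 93.5 CPM in DU-145 and 10.6 CPM in BT-549 cells. Of the further markers, 9 of 39 were higher in DU-145 and 19 in BT-549 (23.1% and 48.7%), led by a DDC intron with 1.73 and 32.4 CPM. Of the repressor genes, 7 of 26 were higher in DU-145 and 14 in BT-549 (26.9% and 53.8%).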

How the data were processed

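ATAC-seq libraries of DU-145 and BT-549 cells were compared, 3 per group. The authors used bwa-mem for alignment to GRCh38 and Picard to drop duplicates, then called peaks in each library with MACS2 (2.2.7.1 in the submitters' processing notes) at a q-value of 0.05. Merged peaks found in at least 3 libraries, whatever their condition, were split into 100-bp bins. A region open in a single condition thus entered through the libraries where it was high. Tests of such regions are not independent of that selection. The deposited bin values are estimated counts, the mean fragment coverage of a bin, not scaled for depth. In the deposited peak lists, made per library, the authors give a fold enrichment and the −log10 of p and q.

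Adjacent bins were joined to regions, and their summed values were rounded to whole numbers. Regions with a total of at least 10 were tested with edgeR 4.0.16 (robust quasi-likelihood, R 4.3.3) on library sums, with Benjamini-Hochberg adjustment over all regions of the fit, and called at an adjusted p under 0.05. Lines were compared, and the interaction of line and DOX tested, on shared bins. A promoter region lies within 1 kb of any transcript start of the gene in GENCODE v44. Annotation is that of the highest bin. Window sums were compared by exact permutation (scipy 1.17.1). The genome used has the chromosome names of the bins, and no bin passes a chromosome's end.

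On simulated data with known changes, the test was checked before use. All 9 genes were named, with their promoter regions, up to 3 regions per comparison by smallest p and up to 3 genes per wider list and comparison. The members and lists were chosen with earlier results of these data known. Alternatives were TMM factors, DESeq2 1.42.0 (size factors and Wald test), loess offsets, removal of a GC trend, limma 3.58.1 (limma-trend on log2 of CPM plus 1), other filters, the highest bin, an adjusted p of 0.01, 5 kb windows, a replicate block and leaving out each library. The cutoffs of the study's methods were added after the data were seen, and were applied to joined regions in edgeR rather than to bins in DESeq2. Replicates of a group held the same value in at most 1.65% of bins. RNA-seq of these cells was not analysed here. Sequences were read from the GRCh38 genome, and the POU3F2 stretch equals that of the RefSeq promoter table (GRCh38.p14).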

Additional observations from a re-analysis of the deposited data

Results flagged for a closer look

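In 5 regions of these windows the DOX effect differed between DU-145 and BT-549 cells, by the interaction of line and DOX in edgeR's quasi-likelihood test over 12 libraries. The NCAM1 intron 88.1 kb from the start (chr11:113049001-113049700) had a difference in log2 fold change of 2.58, and this call was kept in all 22 alternatives. A summed coverage of only 1.7 stood behind its lowest library, BT-549 DOX replicate 1. In the ENO2 window, the difference was 1.11 for the intergenic region beside ATN1 (chr12:6924101-6924900) and -0.60 for the ATN1 intron (chr12:6925101-6926500). It was 0.72 for the C12orf57 promoter region (chr12:6943001-6945200), a call also kept in all 22 alternatives. Only 6 of the 22 bins of that region lie in the window. The intergenic region did not pass with loess offsets (adjusted p = 0.0755) or by the highest bin (0.126). The ATN1 intron was lost without DU-145 vehicle replicate 2 (0.0789), DU-145 DOX replicate 1 (0.0544) or BT-549 DOX replicate 2 (0.0543). The INSM1 upstream region (chr20:20360301-20360700) had a difference of 1.29 and was lost with TMM factors (adjusted p = 0.0861), among other alternatives, and without any of 6 libraries, with adjusted p from 0.0541 without DU-145 DOX replicate 2 to 0.138 without BT-549 vehicle replicate 3. The BT-549 DOX libraries are the shallowest, and the part of their depth in these differences was not tested.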

How the results depend on the processing

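In DU-145, 20 regions were called; 12 were called within 5 kb windows and 3 at the cutoffs of the study, and 16 to 20 with a library left out. In BT-549, 5 regions were called, and 2 at an adjusted p under 0.01, 9 after removal of the GC trend, 3 by the highest bin, 3 in 5 kb windows, 1 at the study's cutoffs and 3 to 7 with a library left out. Between the vehicle-treated lines 19 were called, 12 in 5 kb windows and 16 to 20 with a library left out. For the difference in DOX effect 5 were called, against 3 at an adjusted p under 0.01, 8 with TMM factors, 8 with DESeq2 size factors, 10 after removal of the GC trend, 3 in 5 kb windows and 4 to 6 with a library left out. A lower count in 5 kb windows comes with fewer regions (26, 17, 14 and 14). Window sums could not pass in any alternative with 3 libraries against 3, so that their count of 0 says nothing of stability. Called in every alternative were 8 of 20 regions in DU-145, 2 of 5 in BT-549, 10 of 19 between the lines and 2 of 5 for the difference. Direction turned, with the cause not tested, after removal of the GC trend in DU-145 at the CERKL promoter in the NEUROD1 window (0.049), the FOXA2 promoter (0.43), the ONECUT2 promoter (0.33), the MUC1 promoter (0.25; BT-549 -0.30) and the PRICKLE3 promoter in the SYP window (0.13). Between the lines it turned at the POU3F2 promoter by the highest bin (0.069), at the INSM1 upstream region with loess offsets (0.20), at the ATN1 exon with DESeq2 size factors (0.017) and by the highest bin (0.38), and at the NCAM1 region 328.5 kb downstream with loess offsets (0.32).

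Same-numbered replicates did not deviate together, and with the replicate number as a block 20, 5, 19 and 5 regions were called; the MUC1 promoter region of DU-145 then passed (-0.17, adjusted p = 0.0341). Depth limits BT-549 most, where regions of the windows held a summed coverage as low as 0.5 in a DOX library.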
